A study of Homo sapiens with 6 samples.

Results

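The genes described here are 10 transcriptional readouts and inhibitors of ERK signalling: the phosphatase genes DUSP4, DUSP5 and DUSP6, the Sprouty genes SPRY2 and SPRY4, the SPRED genes SPRED1 and SPRED2, the ETS factor genes ETV4 and ETV5, and PHLDA1. They were taken by gene symbol from the deposited table of 58735 genes, all 10 were found once, and all 10 passed the filter on low counts that left 16577 genes for testing. RNA came from Huh7, an established human hepatocellular carcinoma line grown in RPMI-1640 medium with fetal bovine serum. The line carried a short hairpin RNA against ITGB5, the integrin beta 5 subunit (shITGB5, 3 libraries), or a control hairpin (shcontrol, 3 libraries). The study compared these groups to find what ITGB5 knockdown changes in the transcriptome. Neither the hairpin sequences nor the number of hairpins or clones behind a group is given in the sources used here. The labels do not say whether replicate libraries stem from different cultures, so the p-values measure only how far these libraries scatter, and that scatter may be technical.

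When a growth factor receptor activates RAS, the kinases RAF, MEK and ERK are switched on in turn, and active ERK enters the nucleus and turns on transcription. Some of the genes it turns on encode brakes on the same pathway. Dual specificity phosphatases (DUSP) remove the activating phosphates from MAP kinases, Sprouty proteins (SPRY) block the relay between receptor and RAS or RAF, and SPRED proteins recruit the RAS inactivator neurofibromin. ETV4 and ETV5 are ETS transcription factors of the PEA3 group, which are repressed by CIC until ERK activity relieves the repression, and PHLDA1 encodes a protein with a pleckstrin homology-like domain. Because their transcripts follow ERK activity, such genes are widely used as a readout of the pathway, which hepatoma cells can drive through EGFR and other receptors.

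The libraries held 15777922 to 18011313 counts. At that depth a count of 0 would allow a level of up to 0.167 to 0.190 CPM (counts scaled to the library total), for counting error only. For the values below, totals were also adjusted by TMM factors, which lay between 0.998 and 1.003. ITGB5 itself lay at 204.7, 213.8 and 216.9 CPM in the controls and at 173.1, 181.0 and 174.3 CPM with its hairpin, so the groups were apart but the transcript was still abundant. Albumin (ALB), AFP and HNF4A, which mark hepatocytes and hepatoma cells, were abundant in every library, and the sum of 10 such markers was 5962 to 6103 CPM in shcontrol and 6734 to 6873 CPM in shITGB5 libraries, with 7 of the 10 passing the test described below as higher. Among all genes tested 8.31% passed as higher. Of 5 endothelial and 6 blood or immune markers, KDR was at 0 in all libraries, and CDH5, CD3E and HBB never exceeded 2 counts. PECAM1 (62 to 93 counts per library) made up most of the endothelial sum, and LYZ (102 to 124) most of the blood and immune sum. Neither summed level separated the groups (3.78 to 6.02 against 4.23 to 5.74 CPM, and 6.48 to 7.63 against 6.57 to 7.04 CPM). The sum of 7 fibroblast and stellate markers, nearly all of it LUM and COL1A2, was 290 to 303 CPM in shcontrol and 324 to 333 CPM in shITGB5 libraries, with LUM passing as higher among 5 tested, while DCN and ACTA2 never exceeded 10 counts. The share of mitochondrial transcripts was 3.47% to 3.54% in the controls and 3.24% to 3.29% with the hairpin. These differences ran in parallel with the group, and their part in the results below was not tested.

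Transcripts of 6 of the 10 genes rose with the ITGB5 hairpin (DUSP4, SPRY2, SPRY4, ETV4, ETV5 and PHLDA1), none fell, and 4 did not pass the test (DUSP5, DUSP6, SPRED1 and SPRED2). The changes that passed were moderate, from 16.8% for PHLDA1 to 30.03% for ETV5. A gene was called changed at a Benjamini-Hochberg adjusted p under 0.05 over all genes tested in edgeR's quasi-likelihood test, with no minimum fold. By that rule 15.1% of all genes tested were called: 8.31% were higher and 6.74% lower. The median log2 change was 0.24 over the 10 genes and 0.00 over all genes. For 7 of the 10 genes every hairpin library lay above every control library, which held for 14.7% of all genes, and for none did every hairpin library lie below. In such bulk samples, more cells with a transcript and more transcript per cell cannot be told apart. The summed level of the 10 genes was 359, 360.2 and 346 CPM in shcontrol and 405, 412 and 407 CPM in shITGB5 libraries.

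**Figure D1:**
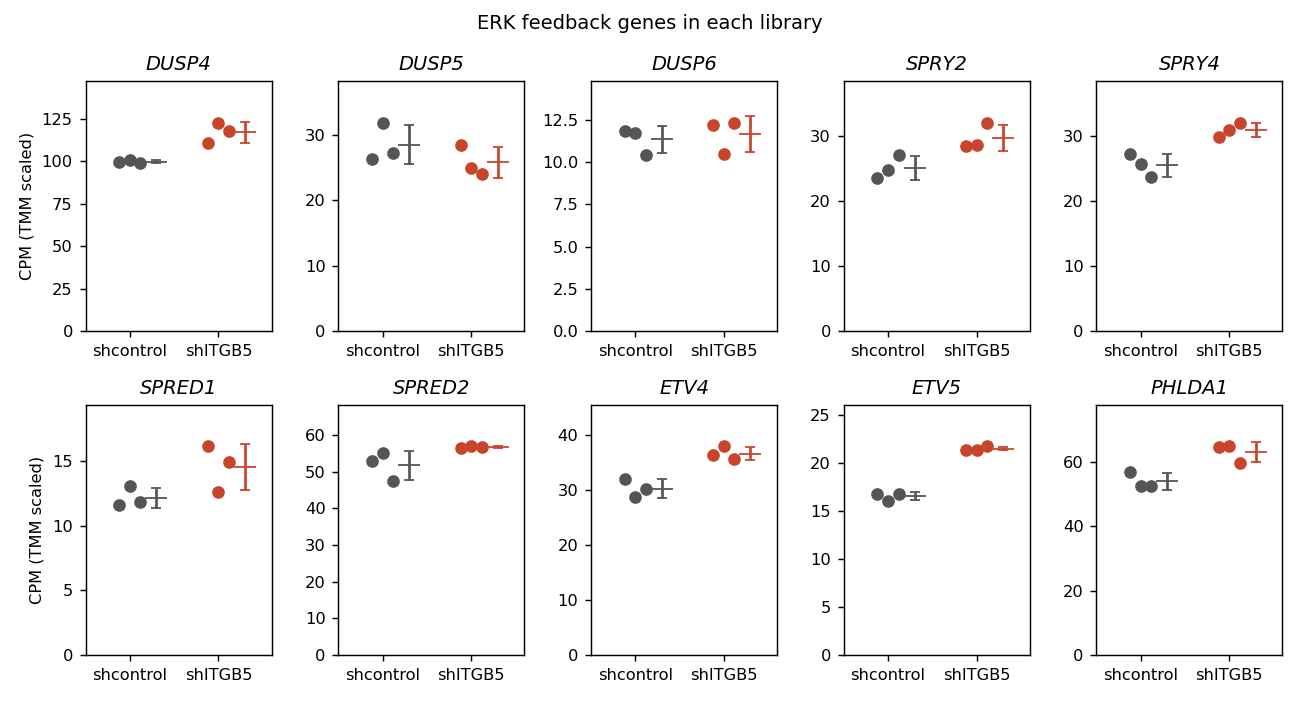
Level of each of the 10 genes in CPM (vertical axis, from 0, with its own scale in each panel) in the 3 shcontrol and 3 shITGB5 libraries, 1 point per library, with the group mean and SD beside the points. The groups are apart in DUSP4, SPRY2, SPRY4, SPRED2, ETV4, ETV5 and PHLDA1 and overlap in DUSP5, DUSP6 and SPRED1.

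Promoter sequences from RefSeq (GRCh38.p14) were at hand for 6 of the genes, SPRY2, SPRY4, SPRED1, SPRED2, DUSP6 and PHLDA1. They span 250 bases before to 50 bases after the first listed transcription start. The 3 that rose are printed with DUSP6, which did not pass, so that they can be read side by side. Capitals mark CCGGAA, the ETS core with a flank, on either strand.
SPRY2, chr13:80341077-80341376, minus strand: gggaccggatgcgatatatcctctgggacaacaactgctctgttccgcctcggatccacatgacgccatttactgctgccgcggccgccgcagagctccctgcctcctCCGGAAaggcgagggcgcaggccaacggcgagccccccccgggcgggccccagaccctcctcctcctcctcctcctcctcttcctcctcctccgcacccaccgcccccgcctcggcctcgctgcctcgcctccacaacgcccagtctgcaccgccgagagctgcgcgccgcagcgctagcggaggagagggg
SPRY4, chr5:142324198-142324497, minus strand: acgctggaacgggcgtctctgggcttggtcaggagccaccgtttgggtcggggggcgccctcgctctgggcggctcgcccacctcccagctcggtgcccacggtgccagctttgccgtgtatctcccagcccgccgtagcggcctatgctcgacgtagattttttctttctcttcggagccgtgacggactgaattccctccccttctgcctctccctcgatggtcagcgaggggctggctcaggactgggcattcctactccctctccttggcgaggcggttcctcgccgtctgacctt
PHLDA1, chr12:76031727-76032026, minus strand: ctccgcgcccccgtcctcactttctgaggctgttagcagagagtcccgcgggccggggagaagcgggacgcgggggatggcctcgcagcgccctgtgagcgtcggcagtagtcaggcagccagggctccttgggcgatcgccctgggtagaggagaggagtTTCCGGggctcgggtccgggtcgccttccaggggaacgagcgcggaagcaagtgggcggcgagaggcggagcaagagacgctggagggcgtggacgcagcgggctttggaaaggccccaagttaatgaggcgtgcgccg
DUSP6, chr12:89352452-89352751, minus strand: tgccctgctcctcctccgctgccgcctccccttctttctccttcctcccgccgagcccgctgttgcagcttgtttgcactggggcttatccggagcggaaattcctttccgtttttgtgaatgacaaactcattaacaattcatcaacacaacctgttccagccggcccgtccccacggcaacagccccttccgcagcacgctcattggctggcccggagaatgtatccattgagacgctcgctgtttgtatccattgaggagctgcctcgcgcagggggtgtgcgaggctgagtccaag

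In these windows CCGGAA occurred in 2 of the 6 promoters, at -142 in SPRY2 and, on the opposite strand, at -89 in PHLDA1 (first base of the match, counted from the start), and in 17.25% of 35116 RefSeq promoters of the same length. The shorter ETS core GGAA was in all 6 and in 95.45% of all promoters. The GC box GGGCGG, searched on both strands like all of these, was in 5 of the 6 (not in DUSP6) against 44.95% of all promoters. Those 5 windows were 60.0% to 76.3% G and C and that of DUSP6 58.3%, against a median of 58.7% over all promoters. The first 5 bases of the cyclic AMP response element, TGACG, were in 3 of the 6 (SPRY2, SPRY4 and SPRED2) against 24.55% of all promoters. The full element TGACGTCA (1.85% of all promoters), the AP-1 site TGANTCA (7.71%) and the CArG box bound by SRF (1.29%) had no match in any of the 6. The forms TGAATGAA (1.65%) and TGAATGGA (1.03%) of the CIC octamer had none either. Other forms of the CIC octamer were not searched, so CIC sites in these windows, that of DUSP6 included, are not excluded. SPRY2 and SPRED2 have other listed starts that were not searched. For SPRY4, PHLDA1, DUSP6 and SPRED1 the start used lay 2208, 2156, 770 and 510 bases downstream of the start of the annotated gene. The sequence around those gene starts was not searched, so the matches and absences hold for these windows only.

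Among the phosphatases, DUSP4 rose, whereas DUSP5 and DUSP6 did not pass the test. DUSP4 (ENSG00000120875, chromosome 8) encodes an inducible nuclear phosphatase that acts on ERK and other MAP kinases. It lay at 99.5, 100.7 and 99.3 CPM in the controls and at 110.9, 122.8 and 117.8 CPM with the hairpin. All hairpin libraries were higher, and the controls lay close together. The rise was 17.3% (95% interval 10.9% to 23.98%), or 0.23 on the log2 scale (SE 0.040; edgeR, adjusted p = 1.24e-05).

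DUSP5 (ENSG00000138166, chromosome 10, 110497838 to 110511544, plus strand, GRCh38), a nuclear phosphatase specific for ERK, lay at 26.4, 31.9 and 27.2 CPM in the controls and at 28.5, 24.9 and 24.03 CPM with the hairpin. The groups overlapped, and the estimate was -9.34% (95% interval -18.8% to 1.23%), or -0.14 on the log2 scale (SE 0.079; edgeR, adjusted p = 0.267). DUSP6 (ENSG00000139318, chromosome 12, 89347232 to 89353271, minus strand), its cytoplasmic counterpart, lay at 11.9, 11.8 and 10.4 CPM in the controls and at 12.2, 10.5 and 12.3 CPM with the hairpin. These values also overlapped, and the estimate was 2.72% (95% interval -12.2% to 20.2%; edgeR, adjusted p = 0.885), so a change of DUSP6 as large as that of DUSP4 lay inside the interval. For DUSP5 the interval ended at 1.23%, below the lower bound for DUSP4.

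The share of one phosphatase in the counts of a pair does not depend on how libraries are scaled, and gave a direct comparison of their changes. DUSP4 made up 89.3%, 89.6% and 90.5% of the counts of DUSP4 and DUSP6 together in the controls and 90.1%, 92.1% and 90.5% with the hairpin. DUSP5 made up 68.97%, 73.1% and 72.3% of the counts of DUSP5 and DUSP6 in the controls and 70.04%, 70.4% and 66.1% with the hairpin. Neither share separated the groups, with exact two-sided permutation p = 0.2 and 0.3, and 0.5 for each after adjustment over the 5 shares tested. The smallest p that 3 libraries against 3 allow is 0.1, so no such test could pass the threshold.

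Both Sprouty genes rose by similar amounts. SPRY2 (ENSG00000136158, chromosome 13, 80335976 to 80340951, minus strand) lay at 23.5, 24.8 and 27.03 CPM in the controls and at 28.5, 28.7 and 32.04 CPM with the hairpin, with no overlap. The rise was 18.7% (95% interval 6.75% to 31.9%), or 0.25 on the log2 scale (SE 0.076; edgeR, adjusted p = 0.0180). This call rested on single libraries: it was lost without shcontrol replicate 1 (adjusted p = 0.126), without shcontrol replicate 2 (0.0549) and without shITGB5 replicate 3 (0.172).

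SPRY4 (ENSG00000187678, chromosome 5, 142310427 to 142326455, minus strand) lay at 27.2, 25.7 and 23.7 CPM in the controls and at 29.8, 31.04 and 32.1 CPM with the hairpin, again with no overlap. The rise was 21.2% (95% interval 9.34% to 34.3%), or 0.28 on the log2 scale (SE 0.074; edgeR, adjusted p = 0.00518), and it missed the threshold without shcontrol replicate 3 (adjusted p = 0.0568). SPRY2 gave 46.3%, 49.1% and 53.3% of the counts of the pair in the controls and 48.9%, 48.02% and 49.96% with the hairpin. The hairpin libraries lay inside the range of the controls (exact permutation p = 0.8, adjusted p = 0.8), and the difference between the group means, -0.62 percentage points, was -2.24 without shcontrol replicate 1 and 1.25 without shcontrol replicate 3.

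Neither SPRED gene passed the test, although their estimates were positive. SPRED1 (ENSG00000166068, chromosome 15, 38252326 to 38357249, plus strand), the gene mutated in Legius syndrome, lay at 11.6, 13.1 and 11.8 CPM in the controls and at 16.1, 12.6 and 14.9 CPM with the hairpin. Replicate 2 of the hairpin group fell among the controls. The estimate was 19.9% (95% interval 3.37% to 39.1%), about the size of the Sprouty changes, with a log2 SE of 0.107 (edgeR, adjusted p = 0.0942), and without shITGB5 replicate 2 SPRED1 passed with a log2 change of 0.35 (adjusted p = 0.0276).

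SPRED2 (ENSG00000198369, chromosome 2, 65310851 to 65432637, minus strand) lay at 52.9, 55.1 and 47.5 CPM in the controls and at 56.5, 56.9 and 56.8 CPM with the hairpin. The groups did not overlap, but the gap was small beside the spread of the controls, and the estimate was 9.38% (95% interval 1.38% to 18.0%; edgeR, adjusted p = 0.109). SPRED1 gave 17.97%, 19.2% and 19.96% of the counts of the SPRED pair in the controls and 22.2%, 18.1% and 20.8% with the hairpin (exact permutation p = 0.4, adjusted p = 0.5).

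The PEA3 factors ETV4 and ETV5, which drive transcription downstream of receptor kinases, both rose, and ETV5 had the highest estimate of the 10 genes. ETV5 (ENSG00000244405, chromosome 3, 186046308 to 186110318, minus strand) lay at 16.8, 16.04 and 16.7 CPM in the controls and at 21.4, 21.4 and 21.7 CPM with the hairpin. The libraries of each group lay close together and far from the other group. The rise was 30.03% (95% interval 15.3% to 46.6%), or 0.38 on the log2 scale (SE 0.087; edgeR, adjusted p = 0.000879).

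ETV4 (ENSG00000175832, chromosome 17, 43527844 to 43579620, minus strand) lay at 31.9, 28.6 and 30.1 CPM in the controls and at 36.3, 37.9 and 35.6 CPM with the hairpin, without overlap. The rise was 20.9% (95% interval 10.03% to 32.8%), or 0.27 on the log2 scale (SE 0.068; edgeR, adjusted p = 0.00236). The gene overlaps DHX8, which lies on the opposite strand and had 164% of the counts of ETV4, and the counting strand is not stated. The annotated exons of the genes share only 68 bases, 1.89% of those of ETV4, and DHX8 did not pass, with 55.8 CPM ± 1.55 in shcontrol and 54.2 CPM ± 5.52 in shITGB5 libraries (SD, n = 3 each; log2 change -0.04, edgeR adjusted p = 0.709). No gene overlapping another of the 10 had more than 4.87% of its counts. ETV4 gave 65.5%, 64.1% and 64.3% of the counts of the pair in the controls and 62.9%, 63.9% and 62.1% with the hairpin. That share was lower in all 3 hairpin libraries, with the smallest exact permutation p possible (0.1, adjusted p = 0.5).

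PHLDA1 (ENSG00000139289, chromosome 12, 76025447 to 76033932, minus strand) also rose, from 57.05, 52.5 and 52.6 CPM in the controls to 64.9, 64.9 and 59.8 CPM with the hairpin. Every hairpin library lay above every control. The rise was 16.8% (95% interval 8.56% to 25.6%), or 0.22 on the log2 scale (SE 0.052; edgeR, adjusted p = 0.00124). DUSP4, ETV4, ETV5 and PHLDA1 passed the threshold under each of the 14 alternatives run, among them leaving out any 1 library.

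Levels between genes can be compared only per gene length, as FPKM, which divides the CPM by the gene length in kilobases. In the controls DUSP4 was the highest of the 10 genes at 13.8 FPKM ± 0.110 (SD, n = 3), followed by DUSP5 at 10.9 ± 1.13, SPRED2 at 10.1 ± 0.760, ETV4 at 8.38 ± 0.459 and SPRY2 at 8.26 ± 0.589 FPKM. PHLDA1 lay at 6.70 ± 0.320, SPRY4 at 3.89 ± 0.272, ETV5 at 2.85 ± 0.0712, DUSP6 at 2.45 ± 0.170 and SPRED1 at 1.47 ± 0.0958 FPKM. Neighbours in this order whose control libraries overlapped were DUSP5 with SPRED2 and ETV4 with SPRY2. DUSP6, a widely used readout of ERK activity, was thus the ninth in level, and its SE on the log2 scale (0.113) was the highest of the 10.

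**Figure D2:**
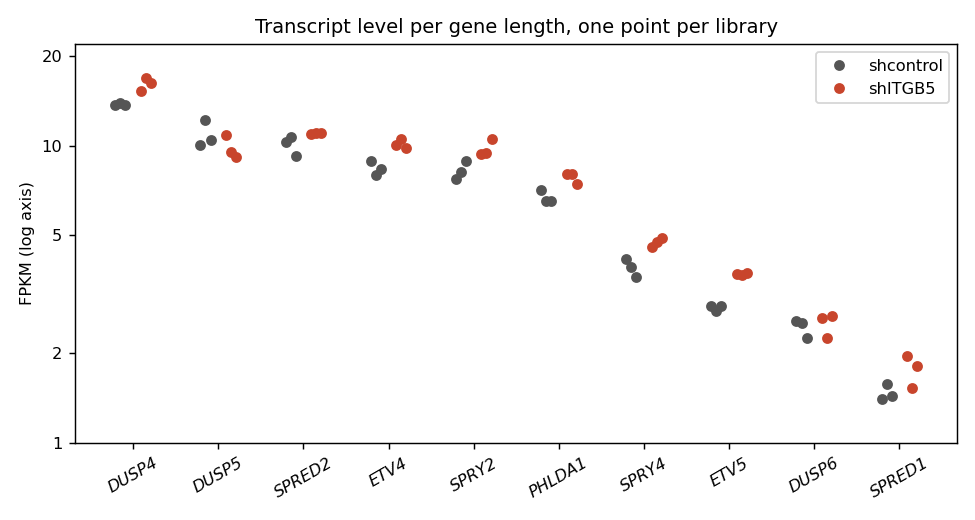
Level of each gene per gene length in FPKM (vertical log axis), 1 point per library, genes ordered by their mean in the controls. DUSP4 lies highest, at 13.8 FPKM in the controls, and SPRED1 lowest, at 1.47 FPKM.

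The 3′ untranslated regions (UTRs) of SPRY4 and DUSP5 each hold 1 copy of AGACCAAA, which joins the 7-base words AGACCAA and GACCAAA that earlier work on these libraries had found among genes lower with the hairpin. They are printed because one gene rose and the other did not, with the word in capitals, on the transcript strand.
SPRY4, chr5:142313331-142313358, minus strand: ggcaaatgcgAGACCAAAtatcattttg
DUSP5, chr10:110511156-110511183, plus strand: ttcagatcatAGACCAAAaaagtcatac
The word begins at base 861 of 1235 in the SPRY4 3′ UTR and at base 740 of 1118 in that of DUSP5. Among 13241 tested protein-coding genes with an annotated 3′ UTR, 533 hold AGACCAAA, with a median log2 change of -0.06, 4.32% called higher and 22.3% called lower. The 11152 genes with neither 7-base word had a median of 0.01, with 10.6% called higher and 6.05% lower. The words were picked from these same libraries for occurring among lower genes, so this difference is not independent evidence. The other 8 members hold none of these words, and no member holds TCGGAGA or CGGAGAA, words tied in the same work to genes that were higher. Only the 3′ UTR of 1 transcript per gene was searched, so other 3′ ends of these genes may differ. What the word contributes to the values of SPRY4 and DUSP5 was not tested.

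Relatives of the 10 genes were described from family lists. Their counts stand beside 8.31% of all genes tested called higher and 6.74% called lower. Of 6 further MAP kinase phosphatase genes that could be tested, 3 rose, DUSP10 fell, and DUSP1 and DUSP7 did not pass. DUSP8, whose product acts mainly on JNK and p38, rose more than any of the 10 genes in estimate, from 37.6, 36.6 and 39.8 CPM to 59.5, 57.0 and 52.7 CPM (log2 change 0.57, edgeR adjusted p = 1.43e-11). DUSP10, which acts on the same kinases, fell from 61.0, 64.4 and 65.1 CPM to 48.3, 50.04 and 45.7 CPM (log2 change -0.40, adjusted p = 2.42e-08). The groups were far apart in both, in opposite directions. DUSP9 encodes a cytoplasmic phosphatase that prefers ERK. Per gene length it was the most abundant phosphatase of the list, at 228 FPKM in the controls against 91.7 FPKM for DUSP1. DUSP9 rose from 632, 628 and 642 CPM in the controls to 681, 726 and 704 CPM (log2 change 0.15, edgeR adjusted p = 1.63e-06). DUSP16 rose from 87.1 CPM ± 3.26 to 98.5 CPM ± 5.46 (SD, n = 3; log2 change 0.18, edgeR adjusted p = 0.00205), which was lost without shITGB5 replicate 1 (0.0666). DUSP2 was too low to test.

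Of 5 further genes of the ETS list, 3 rose and none fell, beside 8.31% higher and 6.74% lower over all genes tested. ETV1, the remaining PEA3 gene, rose from 19.7, 19.3 and 19.9 CPM to 28.6, 29.8 and 30.3 CPM (log2 change 0.59, SE 0.078, edgeR adjusted p = 2.00e-08), so that all 3 PEA3 genes were higher. The repressors CIC and ERF, both inactivated by ERK at the protein level, rose slightly at the transcript level. CIC went from 103.2 CPM ± 1.37 to 113.6 CPM ± 2.29 (log2 change 0.14) and ERF from 124.7 CPM ± 4.52 to 139.1 CPM ± 9.02 (0.16), with edgeR adjusted p of 0.00844 and 0.00230 (SD, n = 3 each), and ERF was lost without shITGB5 replicate 3 (0.0572). Among the remaining Sprouty and SPRED genes none of 3 passed: SPRY1 had 16.2 CPM ± 1.86 in shcontrol and 18.4 CPM ± 1.73 in shITGB5 libraries (edgeR adjusted p = 0.218), and SPRY3 and SPRED3 lay under 2 CPM on average. PHLDA2 did not pass, with 13.4 CPM ± 1.35 in shcontrol and 12.9 CPM ± 0.575 in shITGB5 libraries (adjusted p = 0.815), and PHLDA3 was too low to test.

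**Figure D3:**
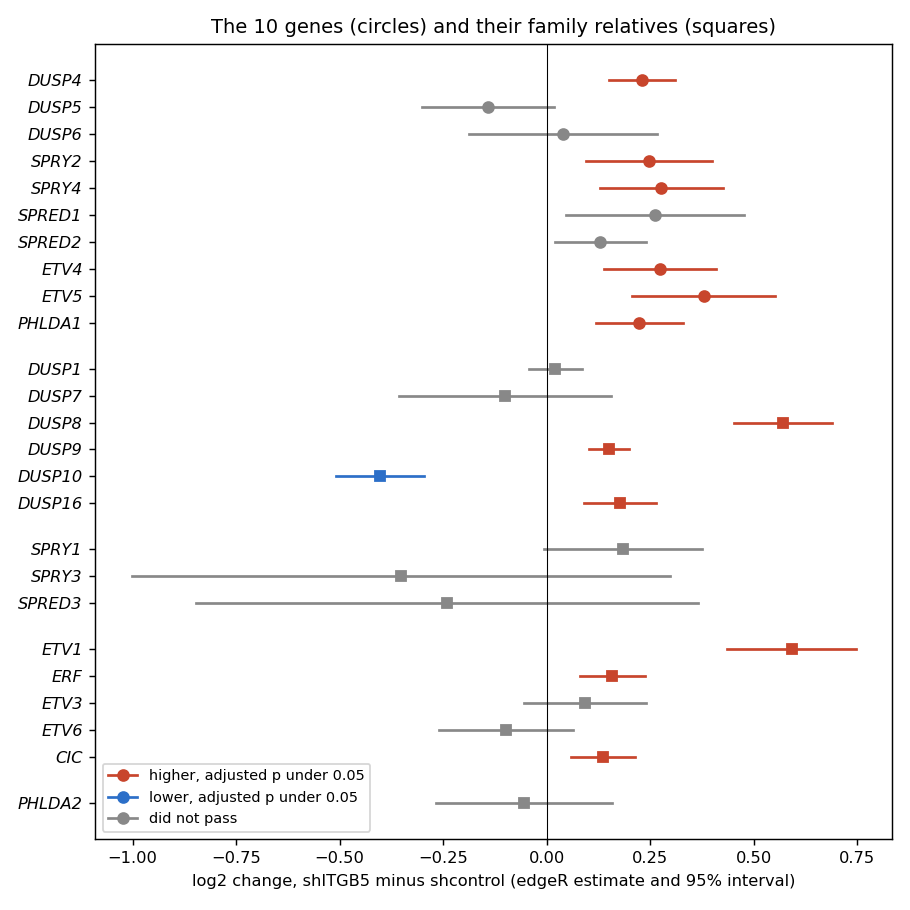
Estimated log2 change with its 95% interval (horizontal axis) for the 10 genes (circles) and their tested family relatives (squares), red where higher and blue where lower past the threshold, grey where the test was not passed. DUSP8 and ETV1 lie at 0.57 and 0.59, and DUSP10 is the single blue point at -0.40.

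Of 13 other genes listed as feedback regulators of receptor and RAS signalling none rose, 3 fell and 10 did not pass, with a median log2 change of 0.00. Over all genes tested, 8.31% were called higher and 6.74% lower. This list was not tested against the 10 genes. ERRFI1, which binds and inhibits EGFR and is itself induced by it, fell from 136.4, 134.6 and 131.0 CPM to 121.4, 123.7 and 120.6 CPM (log2 change -0.14, edgeR adjusted p = 0.00453). SPSB1, an adaptor of a ubiquitin ligase, fell from 56.4 CPM ± 1.97 to 48.1 CPM ± 3.48 (log2 change -0.23, adjusted p = 0.00213, SD, n = 3). SOCS2, a suppressor of cytokine signalling, fell from 14.0 CPM ± 1.15 to 11.1 CPM ± 1.63 (log2 change -0.33, edgeR adjusted p = 0.0326). It overlaps SOCS2-AS1 on the opposite strand, which had 12.4% of its counts. The SOCS2 call was lost with DESeq2 (adjusted p = 0.0741), with no low-count filter (0.0551) and when shcontrol replicate 2 (0.180), shITGB5 replicate 2 (0.0985) or shITGB5 replicate 3 (0.199) was left out.

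Of 19 genes for the pathway's own adaptors and kinases, from RAS to ERK and its kinase substrates, 1 rose, 1 fell and 17 did not pass, with a median log2 change of -0.01. That is near the share over all genes tested, of which 15.1% were called. BRAF fell from 83.7, 86.1 and 82.1 CPM to 68.4, 64.9 and 69.3 CPM (log2 change -0.31, edgeR adjusted p = 2.67e-07). It overlaps NDUFB2, an opposite-strand gene with 121.9% of the counts of BRAF. Exon bases shared by these genes were not counted, and the counting strand is not stated. What NDUFB2 contributes to the BRAF counts was not tested. RPS6KA3, a kinase activated by ERK, rose from 919.5 CPM ± 1.26 to 1006.0 CPM ± 27.8 (SD, n = 3; log2 change 0.13, edgeR adjusted p = 6.96e-06).

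Of 21 tested immediate early and delayed targets of ERK outside the 10 genes, 11 rose, none fell and 10 did not pass, with a median log2 change of 0.18. The shares over all genes tested were 8.31% higher and 6.74% lower. This and the other lists were chosen with earlier results of these data known, so such counts are not independent evidence. The 11 rises spanned log2 changes from 0.16 for KLF6 to 0.80 for VGF. IER3 and JUN, both immediate early genes, had log2 changes of 0.36 each with groups that did not overlap. EGR1, a zinc finger factor, went from 3.90, 4.71 and 4.69 CPM to 7.63, 6.23 and 6.02 CPM (log2 change 0.58, edgeR adjusted p = 0.00732), and missed the threshold when shcontrol replicate 1 (0.0577) or shITGB5 replicate 1 (0.0806) was left out. VGF, at 1.80 CPM ± 0.458 and 3.16 CPM ± 1.16 (SD, n = 3), had overlapping groups, and its edgeR call was lost when shcontrol replicate 1 (adjusted p = 0.113), shcontrol replicate 3 (0.120) or shITGB5 replicate 2 (0.362) was left out.

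At the receptor level, 5 of 9 tested EGFR family receptor and ligand genes rose and EGFR fell slightly, beside 8.31% higher and 6.74% lower over all genes tested. The ligand EREG rose from 18.7, 20.3 and 16.8 CPM to 40.4, 36.2 and 38.0 CPM (log2 change 1.04, edgeR adjusted p = 9.33e-17), AREG by a log2 change of 0.61 (1.26e-09) and BTC by 0.68 (0.00408). The receptor gene ERBB2, which overlaps the opposite-strand gene MIEN1 (13.3% of its counts), rose by 0.26 (adjusted p = 1.28e-06), and BTC was lost without shcontrol replicate 2 (edgeR adjusted p = 0.0576). EGFR fell by 0.09 on the log2 scale, from 788 CPM ± 17.0 to 741 CPM ± 9.89 (SD, n = 3; edgeR adjusted p = 0.00272).

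**Figure D4:**
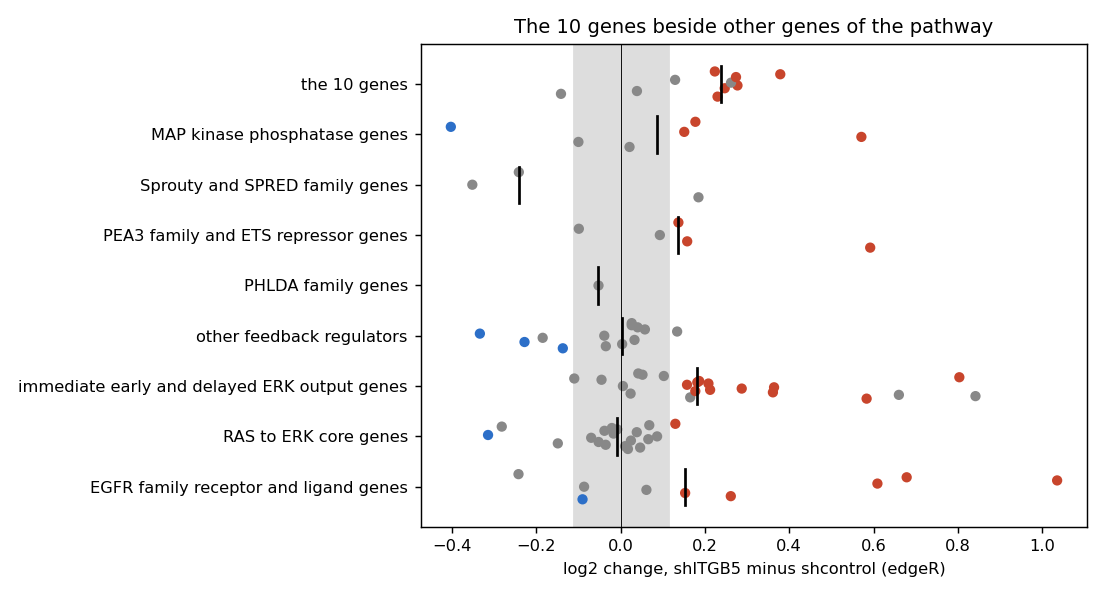
Log2 change of each tested gene (horizontal axis) for the 10 genes and for the other genes of 8 pathway lists, with the 10 genes left out of those lists; red is higher and blue lower past the threshold, the black bar is the median, and the grey band spans the middle of all genes, from the lower quartile at -0.11 to the upper at 0.11. The median is 0.24 for the 10 genes, 0.18 for the other ERK targets and -0.01 for the RAS to ERK core.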

How the data were processed

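The values are raw gene counts, although the authors deposited the table under an FPKM name: 100% of the values were whole and library totals differed. Total RNA went into a strand-specific library kit, per the labels' protocols. The sources used here do not give the aligner, counter, strand setting or build, and the positions of all 58735 genes equalled those of GENCODE 29 (GRCh38). Column codes S and NC were read as the ITGB5 and the control hairpin, which the labels do not spell out.

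Counts were analysed with edgeR 4.0.16 (R 4.3.3): filterByExpr, TMM scaling, the quasi-likelihood test of 3 libraries against 3 without covariates, and two-sided p-values adjusted over 16577 genes. The SE is the absolute log2 change divided by the square root of F, and 95% intervals use the t distribution with the fitted degrees of freedom. FPKM was computed from the counts and the gene lengths in the table. Libraries of a group differed by more than sampling noise (chi-square per degree of freedom 2.08 to 2.48, over genes with a mean of at least 50 counts).

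The members and lists were chosen with earlier results of these data known, and p-values were not adjusted over the lists alone. Besides the members, ITGB5 and EGFR, the rule for named genes took from each list the further genes past the threshold, at most 4 with the highest absolute log2 change, or the 2 most abundant where none passed. DUSP1, DUSP7, DUSP2, SPRY3, PHLDA3 and KLF6 were named after their values were seen. Alternatives were DESeq2 1.42.0, limma-trend (limma 3.58.1, log2 CPM with a prior count of 2), RLE, upper-quartile or no scaling factors, no low-count filter, at least 1 CPM in every library, a replicate block, and leaving out each library.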

Additional observations from a re-analysis of the deposited data

How the results depend on the processing

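Under the 14 alternatives the number of the 10 genes called higher stayed between 5 and 7 and none was called lower, while the genes called over the whole table ranged from 1914 with DESeq2 to 2553 with the stricter filter, against 2495. DESeq2, limma-trend, the other scalings, both other filters and the replicate block each called 6 of the 10 genes. The scalings moved the median log2 change of all genes by less than 0.01. Without 1 library, SPRY2 ranged from 0.19 to 0.30 and SPRY4 from 0.23 to 0.33 on the log2 scale, and DUSP6, which passed no test, from -0.0181 to 0.108, being negative without shcontrol replicate 3 or shITGB5 replicate 3 (-0.00248). Same-numbered libraries did not deviate together (correlations -0.0101, -0.0287 and -0.0454, and 0 of 6 libraries correlated best with their own number), and the replicate block called 2303 genes, 6 of the 10 among them. The differences in paralog shares moved with single libraries. Without 1 library they ranged, in percentage points, from -2.24 to 1.25 for SPRY2 in the Sprouty pair, 0.442 to 2.50 for SPRED1, -2.13 to -1.21 for ETV4, 0.516 to 1.54 for DUSP4 and -3.82 to -1.22 for DUSP5, so that only SPRY2 changed sign. With 3 libraries per group and means of 11.4 and 11.7 CPM, the interval for DUSP6 spanned -12.2% to 20.2%, which does not exclude a rise of DUSP6 as large as that of DUSP4 (17.3%).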
